A study of Felis catus with 2 samples.

Results

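The genes described are 5 apolipoproteins (APOA1, APOA2, APOE, APOD and CLU, which is also called apolipoprotein J) and 2 proteins that move lipid onto or between lipoproteins (PLTP and ABCA1). They were chosen by name with earlier results of these data known, and all 7 are listed on 1 row each among 32065 loci. Polyadenylated RNA was sequenced from dissected iridocorneal angle and ciliary body, with adjoining sclera and trabecular meshwork, of 1 domestic cat (Felis catus) with primary congenital glaucoma (PCG) and 1 unrelated normal cat, both 2 months old. The study's affected cats belong to a colony in which a frameshift mutation in LTBP2 segregates with the disease, and the study sequenced the affected cat to follow transcripts of that mutation. The labels give only its disease state, and the breed and sex of the 2 cats are not given in the sources used here. Each condition is 1 library, so no difference between the cats was tested, and disease, individual and dissection cannot be told apart.

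Apolipoproteins are the protein coat of lipoprotein particles, which carry cholesterol and other lipids between cells. APOA1 and APOA2 are the main proteins of high-density lipoprotein and are made chiefly by liver and, for APOA1, intestine. APOE is made by many tissues, among them macrophages and the glia of brain and retina, and is bound by several lipoprotein receptors on cells. ABCA1 is the membrane transporter that loads cellular cholesterol and phospholipid onto lipid-poor APOA1 and APOE, and PLTP moves phospholipid between the particles thus formed. ABCA1, APOE and PLTP are all targets of the liver X receptors (LXR), nuclear receptors that sense oxidised cholesterol.

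The values are FPKM, that is, fragment numbers divided by transcript length and sequencing depth, so that levels of different genes can be set side by side. Summed FPKM was 649113 in the normal cat and 672893 in the affected cat. The value of 1 fragment on 1 kilobase of effective transcript length, read from the steps between low values, was 0.0141 FPKM in the normal cat and 0.0148 FPKM in the affected cat. Marker genes of the labelled tissue were present in both libraries. The trabecular meshwork gene MYOC had 149.7 and 301.5 FPKM (normal and affected), and the ciliary epithelium gene OPTC had 351.0 and 1235 FPKM. Markers of lens and photoreceptors, which are not in the described dissection, were present as well, and the sums of several marker lists differed between the libraries (given below beside the genes they concern).

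Between the 2 libraries the 7 genes differed in both directions. APOA2, CLU and ABCA1 were higher in the affected library, APOD and APOA1 were lower, APOE differed little, and PLTP was listed at 0 in the affected library. Log2 ratios were taken as log2 of (affected FPKM + 1) over (normal FPKM + 1), over 16676 loci that reached 1 FPKM in either library, a minimum that all 7 genes passed. On this scale 3 of the 7 genes were at least 2-fold higher in the affected cat, against 8.14% of all loci. A further 3 were at least 2-fold lower, against 8.75% of all loci, and 2 of them remained when PLTP was left out. Past 4-fold were 1 higher gene (APOA2), against 1.68% of all loci, and 2 lower ones, APOD and PLTP at its listed 0, or 1 without PLTP, against 1.79%. Since the genes were chosen with these values known, nothing is read from these shares. The median log2 ratio of the 7 genes was 0.43, and 0.75 without PLTP, while that of all loci was −0.0047. The 6 genes with a value in both libraries spanned 8.12 on the log2 scale, from −2.27 for APOD to 5.85 for APOA2.

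**Figure D1:**
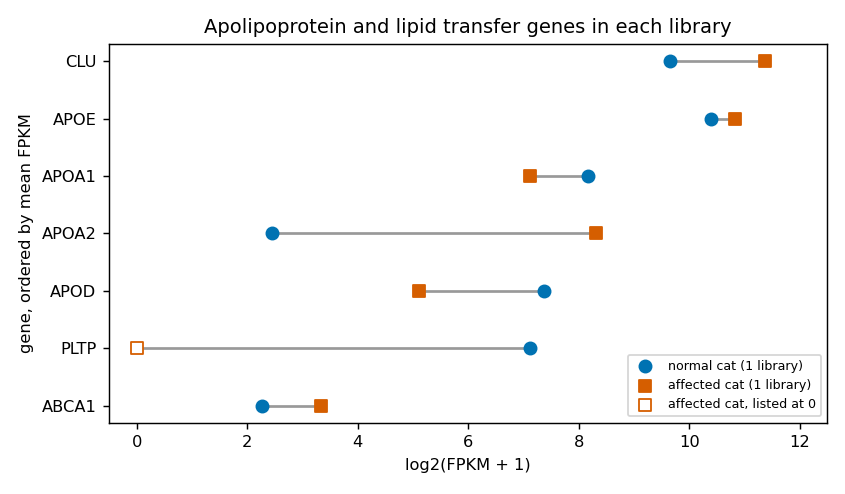
Level of each of the 7 genes on the log2(FPKM + 1) scale (x axis), with genes ordered by mean FPKM (y axis), in the normal (circles) and the affected library (squares, open where the gene is listed at 0). Each point is 1 library, so there are no error bars. The long line of APOA2 runs from 4.49 FPKM in the normal to 316 FPKM in the affected cat, while the points of APOE lie close together.

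The order of the levels differed between the cats. In the normal library it was APOE, CLU, APOA1, APOD, PLTP, APOA2 and ABCA1. In the affected library it was CLU, APOE, APOA2, APOA1, APOD and ABCA1, with PLTP at its listed 0. With 1 library per cat there is no spread against which neighbours in these orders could be compared. Together the 7 genes made up 0.423% of summed FPKM in the normal cat and 0.735% in the affected cat. CLU and APOE supplied 78.2% of that in the normal cat and 89.9% in the affected cat, so the sum over the 7 genes mainly follows these 2. The affected sum was 1.80 times the normal one, and 1.19 times without CLU. These sums and shares take the 0 of PLTP as listed. Without PLTP the sums were 2605 FPKM in the normal cat and 4945 FPKM in the affected cat, 1.90 times as much.

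APOA2, the second most abundant protein of high-density lipoprotein in plasma, is listed on chromosome F1 of felCat5 from 63097956 to 63099617. Its level was 4.49 FPKM in the normal cat and 316 FPKM in the affected cat. This is 70.5 times as much, and on the log2 scale with the pseudocount the difference was 5.85. Only 13 of the 16676 loci had a higher log2 ratio. In the normal library APOA2 stood below the middle of the loci, above 33.6% of them and at 0.530 times their median. In the affected library it exceeded 98.4% of loci, at 37.8 times the median. The low value in the normal cat rests on about 319 fragments per kilobase of effective length, which gives a counting error of 5.60% on 1 kilobase and a larger one on a shorter transcript. That error does not include the variation between cats.

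APOA1, which forms the scaffold of high-density lipoprotein and activates its cholesterol-esterifying enzyme, lies on chromosome D1 from 14441790 to 14445265. It had 286 FPKM in the normal cat and 138 FPKM in the affected cat. Its normal level was 2.07 times the affected level, and its log2 ratio of −1.04 is just past the 2-fold limit. In both libraries APOA1 was still among the higher loci, above 98.3% of them in the normal cat and 96.3% in the affected cat. The partners of high-density lipoprotein thus differed in opposite directions. APOA1 had 63.7 times the level of APOA2 in the normal library, whereas APOA2 had 2.29 times the level of APOA1 in the affected library. Such a ratio within a library does not depend on the scaling between the libraries.

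Most genes that liver makes alongside these apolipoproteins had low values in both cats, with transferrin (TF) as the main exception. Of 13 listed liver genes, 12 are named in the table and 4 passed the minimum, 2 of them at least 2-fold higher in the affected cat and none at least 2-fold lower. Albumin (ALB) had 0.241 FPKM in the normal cat and 0.222 FPKM in the affected cat, AHSG was listed at 0 in both, and FGA was listed at 0 in the normal and at 0.0053 FPKM in the affected cat. The sum of the list was 21.8 FPKM in the normal cat and 104.0 FPKM in the affected cat. Most of this was TF, the iron carrier, with 12.9 and 88.1 FPKM, followed by haptoglobin (HP) with 5.23 and 9.84 FPKM, and without TF the sums were 8.83 and 15.9 FPKM.

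Loci next to APOA2 and APOA1 did not share 1 pattern. On the side of APOA2 with higher coordinates, after a gap of 1980 bases, lies ADAMTS4, a protease of proteoglycans. ADAMTS4 had 2.90 FPKM in the normal cat and 20.9 FPKM in the affected cat. On the other side TOMM40L had 9.98 and 10.9 FPKM. These neighbours were chosen after their values were seen. In the gene cluster around APOA1, APOC3 had 1.06 FPKM in the normal cat and 2.13 FPKM in the affected cat, APOA4 had 0.815 and 0.316 FPKM, and APOA5 had 0.0052 and 0.011 FPKM. Of these 4 apolipoprotein genes APOA1 was therefore the only one above 3 FPKM in either library. SIK3, which starts 4268 bases beyond the end of APOA1, had 10.8 and 17.7 FPKM.

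APOE lies on chromosome E2 from 10711137 to 10713625, and was the most abundant of the 7 genes in the normal and the second in the affected library. It had 1345 FPKM in the normal cat and 1807 FPKM in the affected cat. The affected level was 1.34 times the normal one, a log2 ratio of 0.43, and 76.1% of all loci had a lower log2 ratio. Only 54 of the loci past the minimum were higher than APOE in the normal cat and 36 in the affected cat. Its neighbour TOMM40, which starts 2115 bases beyond the end of APOE, had 24.0 and 26.2 FPKM. APOC2, a nearby gene that encodes the activator of lipoprotein lipase, was listed at 0 in both.

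CLU encodes clusterin, a secreted chaperone that also circulates on lipoproteins, and lies on chromosome B1 from 50033921 to 50052878. It had 800.2 FPKM in the normal cat and 2641 FPKM in the affected cat, 3.30 times as much. The log2 ratio of 1.72 exceeded that of 97.5% of all loci, and 89.8% of the 98 loci with a mean within 2-fold of its own. Only 23 of the loci past the minimum had a higher level than CLU in the affected library, and 109 in the normal one. CLU was at 0.595 times the level of APOE in the normal and at 1.46 times in the affected cat, so the order of these abundant transcripts was exchanged.

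Retinal glia and macrophages are known sources of APOE, and CLU is made by many ocular epithelia and glia. In the list of Müller glia and astrocyte genes, 2 of 8 were at least 2-fold higher in the affected cat and none at least 2-fold lower. The sum was 2493 FPKM in the normal cat and 3620 FPKM in the affected cat. None of these 8 was listed at 0. Glutamine synthetase (GLUL) had 346.6 and 1981 FPKM, RLBP1 184.7 and 260.8 FPKM, and GFAP 1.54 and 2.35 FPKM. VIM, DKK3 and S100B were lower in the affected cat by less than 2-fold, VIM with 1647 and 1105 FPKM. The sum of this list rests on single genes, since it was 2147 and 1638 FPKM without GLUL and 846.0 and 2514 FPKM without VIM. Of 12 macrophage genes, 9 are named in the table and 8 passed the minimum, with 4 at least 2-fold higher, none lower, and a sum of 180.1 FPKM in the normal cat and 427.7 FPKM in the affected cat. LYZ was listed at 0 in both. The complement genes C1QA, C1QB and C1QC and the scavenger receptor CD163 were the 4 higher genes, whereas CSF1R had 12.9 and 11.7 FPKM. In the ciliary epithelium list 4 of 11 genes were at least 2-fold higher and 1 was lower, with a median log2 ratio of 0.92, sums of 12339 and 14784 FPKM and none at 0. Most of these sums was CRYAB, which lens also makes, and without it they were 2322 and 6191 FPKM. In the retinal pigment epithelium list none of 8 was higher and 1 was lower, with a median log2 ratio of −0.38 and none at 0. Its sums were 855.3 and 1242 FPKM, but 350.7 and 251.2 FPKM without TTR, which ciliary epithelium also makes. The part of these cell types in the values of CLU and APOE was not tested. In whole tissue, fewer cells of a type and less RNA per cell cannot be told apart.

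APOD is not related to APOA1, APOA2, APOE or CLU but belongs to the lipocalins, small carriers of hydrophobic molecules. It is known from fibroblasts and from peripheral nerve after injury. It lies on chromosome C2 from 72775007 to 72792454. It had 165 FPKM in the normal cat and 33.6 FPKM in the affected cat. The normal level was 4.93 times the affected one, and the log2 ratio was −2.27, with 1.21% of all loci lower. APOD exceeded 97.2% of loci in the normal but 83.6% in the affected library.

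Most markers of the stroma were lower in the affected cat, as APOD was. Of 10 listed genes of corneal and scleral stroma fibroblasts, 8 were at least 2-fold lower in the affected library and none was higher. Their sum was 4781 FPKM in the normal cat and 459.1 FPKM in the affected cat, and their median log2 ratio was −3.95, with none listed at 0. Without COL1A1 the sums were 2305 and 417.3 FPKM, and without OGN 4475 and 199.7 FPKM. Decorin (DCN) had 685.6 and 82.2 FPKM and PDGFRA had 30.6 and 8.36 FPKM in the normal and affected libraries. In the list of Schwann cell and myelin genes 3 of 10 were at least 2-fold lower, 1 was higher, and the sums were 271.3 and 193.3 FPKM, with none at 0. The part of these cells in the level of APOD was not tested. Of 4 other listed lipocalins past the minimum, 1 was at least 2-fold higher in the affected cat and none was at least 2-fold lower. RBP4, the plasma carrier of retinol, had 684 FPKM in the normal cat and 5024 FPKM in the affected cat. PTGDS, which makes prostaglandin D and binds retinoids, had 972 and 1840 FPKM and stayed under 2-fold with a log2 ratio of 0.92.

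PLTP, a member of the family of lipid-binding proteins that includes BPI and LBP, lies on chromosome A3 from 14967261 to 14991427. It had 138 FPKM in the normal library, above 96.7% of loci, and was listed at 0 in the affected library. No fold is given against this 0. The table lists CTSA (a lysosomal carboxypeptidase) and NEURL2 with the same start and end as PLTP, and both were also listed at 0 in the affected library. In the normal library CTSA had 103 FPKM and NEURL2 had 8.72 FPKM. The loci on either side of that span had values in both cats. PCIF1, which ends 2544 bases before it, had 19.3 FPKM in the normal cat and 28.5 FPKM in the affected cat, and ZSWIM1, which starts 3293 bases after it, had 2.72 and 2.01 FPKM. All 3 loci of the span were thus listed at 0 together. Over all loci listed, 17 were at 0 in the affected library with at least 10 FPKM in the normal, and 18 the other way round, among them the abundant lens gene CRYAA in the affected cat. The 0 of PLTP is therefore given as listed and not read as absence of its transcript.

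**Figure D2:**
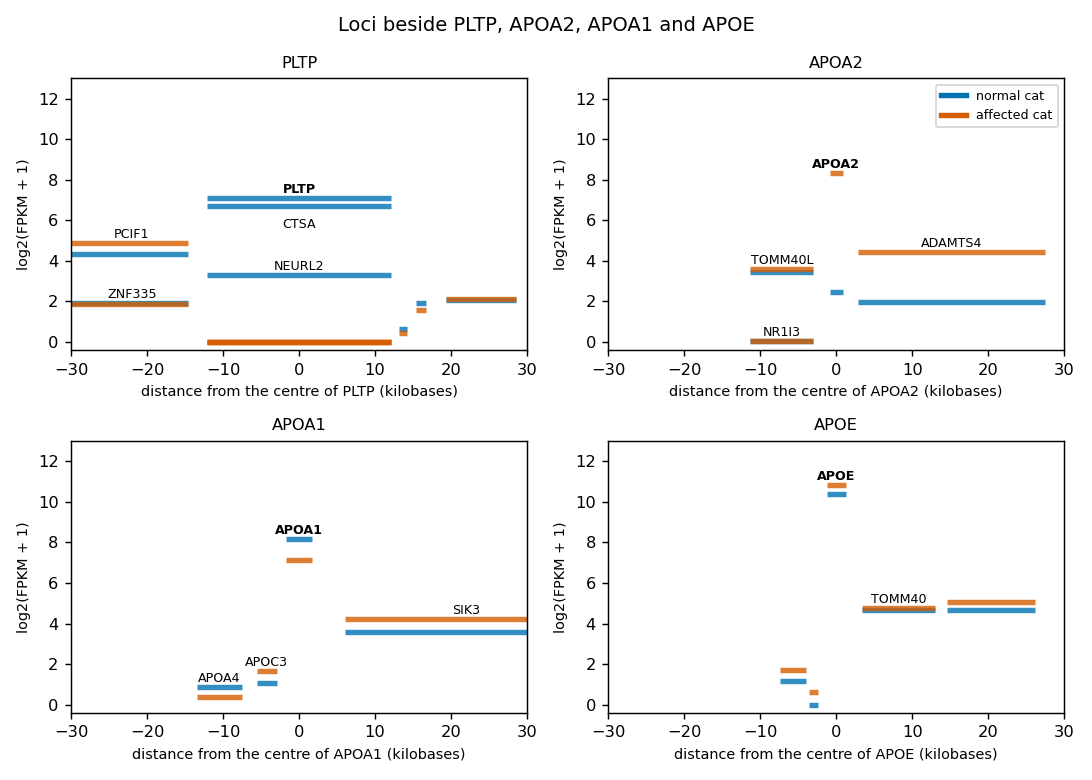
Loci within 15 kilobases of PLTP, APOA2, APOA1 and APOE, drawn at their distance in kilobases from the centre of the gene (x axis) and at their log2(FPKM + 1) (y axis) in the normal (blue) and affected library (orange). Bars show the length of each locus, cut at the panel edge, and small or unnamed loci carry no label, and not every neighbour is drawn. PLTP, CTSA and NEURL2 share 1 span and lie together at 0 in the affected library, while the adjoining PCIF1 has values in both.

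ABCA1 was the least abundant of the 7 genes in the normal library. It lies on chromosome D4, where the locus runs from 68281307 to 68467491 and is shared with a row that joins NIPSNAP3A and NIPSNAP3B. ABCA1 had 3.83 FPKM in the normal cat and 9.14 FPKM in the affected cat, 2.39 times as much. Its log2 ratio of 1.07 exceeded that of 92.9% of all loci. The joined NIPSNAP3A and NIPSNAP3B row had 45.9 FPKM in the normal cat and 32.3 FPKM in the affected cat, so the rows on this span differed in opposite directions. The library kit did not mark strand, so reads from overlapping parts of such loci, as on the span of PLTP, cannot be told apart by strand. The values of ABCA1 rest on about 272 and 617 fragments per kilobase of effective length, with counting errors of 6.06% and 4.03% on 1 kilobase.

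**Figure D3:**
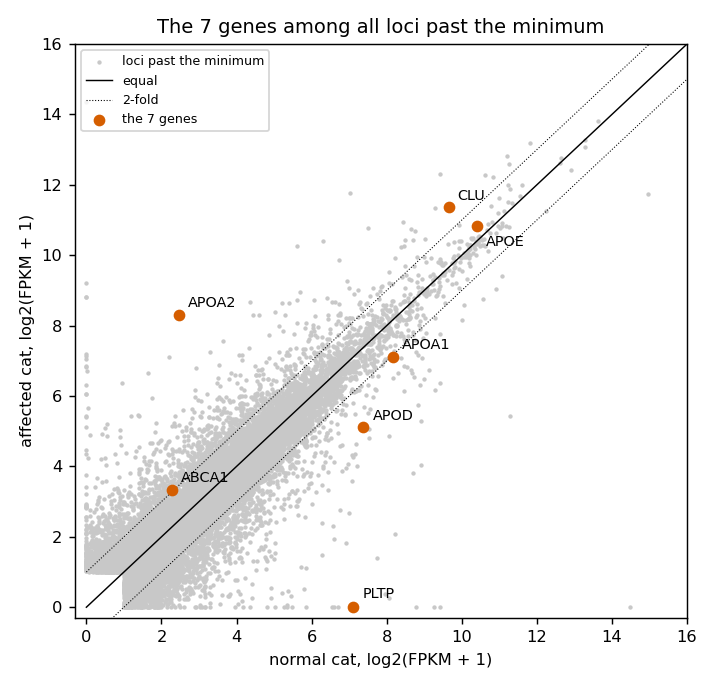
Level in the affected (y axis) against the normal library (x axis), both as log2(FPKM + 1), for the 16676 loci past the minimum (grey) and the 7 genes (orange). The solid line marks equal values and the dotted lines 2-fold differences. APOA2 and CLU lie above the upper dotted line, ABCA1 just above it, APOE between the lines, APOA1 just below the lower line, APOD further below, and PLTP on the axis at 0.

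Ratios between the genes within a library also differed between the cats. APOE had 351 times the level of ABCA1 in the normal and 198 times in the affected library, and CLU had 209 and 289 times the level of ABCA1. The largest shift of such a ratio, among the 15 pairs of the 6 genes with values in both libraries, was that of APOA2 to APOD. APOA2 was at 0.0271 times the level of APOD in the normal and at 9.42 times in the affected cat. The ratio of APOA1 to APOD shifted less, from 1.73 to 4.11.

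The genes nearest to each of the 7 were found by the distance between their log2(FPKM + 1) values in the 2 libraries, over 11475 other named genes. A likeness over 2 libraries is a weak description, and carries no test. APOA2 had no close match. Its nearest gene was the immediate early gene C-FOS, at a distance of 1.22 with 3.60 FPKM in the normal cat and 138 FPKM in the affected cat, followed by CES1 and EGR1. For CLU the nearest were the lens gene CRYGS (distance 0.37), PTGDS (0.59) and APOE (0.93). For APOD they were C1QTNF6 (0.17), the melanin enzyme TYR (0.35) and CCDC3 (0.43). APOA1 lay nearest to TUBB, SH3BGRL3 and CTNNB1, and APOE to BETA-ACTIN, RPS14 and RPS18. ABCA1, in the densest range of levels, had KIF1B at a distance of 0.025. PLTP had CTSA, with which it shares its span, at 0.42.

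Other genes that make, carry or take up lipoprotein lipid were described from 8 lists of 124 genes, of which 102 are named in the table and 82 passed the minimum. Of the 82 genes, 11 (13.4%) were past 2-fold on the higher side in the affected cat, against 8.14% of all loci, and 4 (4.88%) were at least 2-fold lower, against 8.75%. The other 67 lay within 2-fold, and the median log2 ratio was 0.064.

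Among the further apolipoproteins only 3 of 8 named genes passed the minimum, and none was past 2-fold. APOM, another lipocalin of high-density lipoprotein, had 6.29 FPKM in the normal cat and 4.41 FPKM in the affected cat. APOB, the protein of low-density lipoprotein, had 0.459 and 1.11 FPKM. APOC2, APOF and APOL6 were listed at 0 in both. The 8 named genes summed to 8.63 FPKM in the normal cat and 7.97 FPKM in the affected cat, or 2.34 and 3.56 FPKM without APOM. The other 5 of the 13 listed genes have no row of their own, and APOH stands on a row joined with other genes.

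Of the lipases and plasma lipid transfer genes 6 of 12 passed the minimum, with 1 at least 2-fold higher and 2 lower. Lipoprotein lipase (LPL) was abundant in both, with 76.4 FPKM in the normal cat and 105 FPKM in the affected cat. GPIHBP1, which anchors this enzyme on capillary endothelium, had 7.08 and 0.0387 FPKM, a log2 ratio of −2.96. ANGPTL4, an inhibitor of the enzyme, had 10.1 and 3.65 FPKM. PON2, an intracellular paraoxonase, had 38.6 and 111 FPKM, 2.89 times as much in the affected cat. In the list of vascular endothelium genes, 6 of 9 were at least 2-fold lower and none higher, with sums of 200.1 FPKM in the normal cat and 69.6 FPKM in the affected cat and none at 0. Their part in the value of GPIHBP1 was not tested. BPI and LBP, of the family of PLTP, did not reach the minimum. LCAT, the enzyme activated by APOA1, is joined with SLC12A4 on 1 row, with 47.5 and 79.9 FPKM, and was not matched to a single gene.

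Among other ABCA and ABCG transporters 8 of 14 passed the minimum, with 2 at least 2-fold higher and none lower. ABCG4, which exports sterols to high-density lipoprotein in neural tissue, had 10.6 FPKM in the normal cat and 29.5 FPKM in the affected cat. ABCA4, the retinoid transporter of photoreceptors, had 2.54 and 10.4 FPKM. In the photoreceptor list 7 of 8 genes were at least 2-fold higher and none lower, with sums of 463.9 and 1803 FPKM and none at 0. Their part in the value of ABCA4 was not tested. ABCG1, the usual partner of ABCA1 in cholesterol export, was listed at 0 in both libraries.

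Receptors and their chaperones showed no common direction, with 2 of 16 genes at least 2-fold higher, 1 lower, and a median log2 ratio of −0.086. LRP2 (megalin), the large endocytic receptor of epithelia that takes up CLU and RBP4 among others, had 10.1 FPKM in the normal cat and 41.2 FPKM in the affected cat, a log2 ratio of 1.93. AMN, which escorts the megalin partner cubilin, had 0.686 and 2.94 FPKM. The scavenger receptor STAB1 had 6.91 and 2.67 FPKM. LRP8, the APOE receptor 2 of neural tissue, had 20.3 and 39.98 FPKM and stayed just under 2-fold with a log2 ratio of 0.94. SORL1 stayed just under 2-fold on the lower side, with 3.17 and 1.11 FPKM and a log2 ratio of −0.98. Of the 16 genes 7 had a log2 ratio above 0 and 9 below. LRP1 had 40.6 and 75.9 FPKM, and its chaperone LRPAP1 had 119 and 180 FPKM.

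In the LXR and PPAR list 2 of 12 genes were at least 2-fold higher and none lower. SREBF1, a lipogenic factor and LXR target, had 28.3 FPKM in the normal cat and 214 FPKM in the affected cat, a log2 ratio of 2.87. NR1H2, which encodes LXR beta, had 25.1 and 56.3 FPKM, while NR1H3, which encodes LXR alpha, had 12.4 and 9.17 FPKM. MYLIP, a further LXR target, had 17.7 and 28.9 FPKM. SCD and FASN of this list stand on rows joined with other genes, at 16.8 and 14.6 FPKM and at 54.0 and 49.3 FPKM. The median log2 ratio of the 12 genes was 0.12, with 7 above 0 and 5 below.

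Enzymes and regulators of cholesterol synthesis mostly lay within 2-fold, with 1 of 20 genes past it in each direction and 13 of 20 below a ratio of 1. The median log2 ratio was −0.32. DHCR7, which completes the synthesis, had 9.64 FPKM in the normal cat and 2.97 FPKM in the affected cat. For sterol handling inside the cell, 2 of 13 genes were at least 2-fold higher and none lower. NCEH1, which hydrolyses cholesteryl esters, had 2.56 and 6.72 FPKM, and CYP46A1, which makes the oxysterol that leaves neural tissue, had 1.75 and 4.57 FPKM. NPC2, the lysosomal sterol carrier, was the most abundant of this list, with 236 and 328 FPKM.

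**Figure D4:**
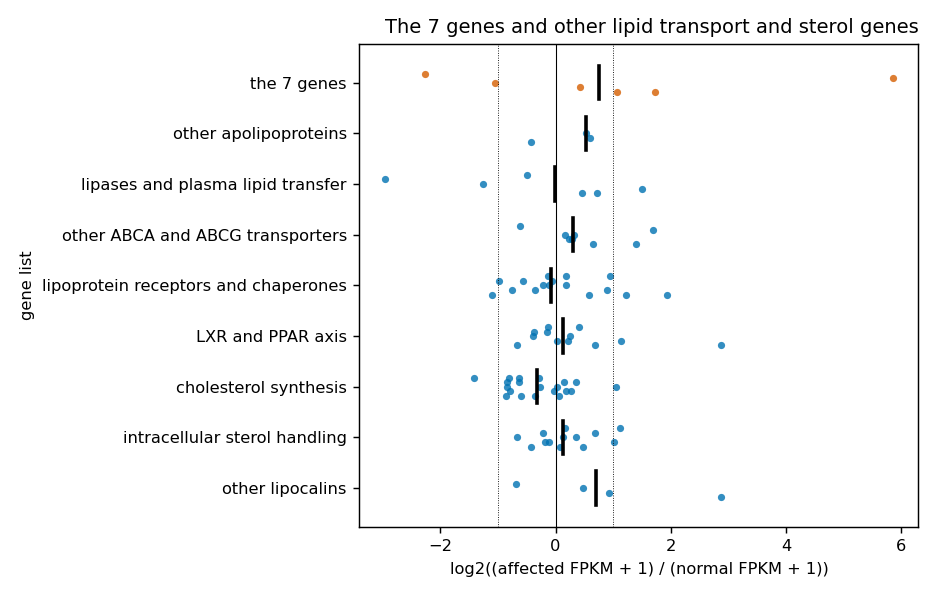
Log2((affected FPKM + 1) / (normal FPKM + 1)) (x axis) of each gene past the minimum, for the 7 genes (orange) and 8 lists of other lipid transport and sterol genes (blue, y axis). Genes listed at 0 in a library are not drawn, black bars mark the medians of the drawn genes, and dotted lines mark 2-fold. The 6 drawn genes of the 7 are spread from −2.27 to 5.85, while 67 of the 82 other genes lie between the dotted lines.

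**Figure D5:**
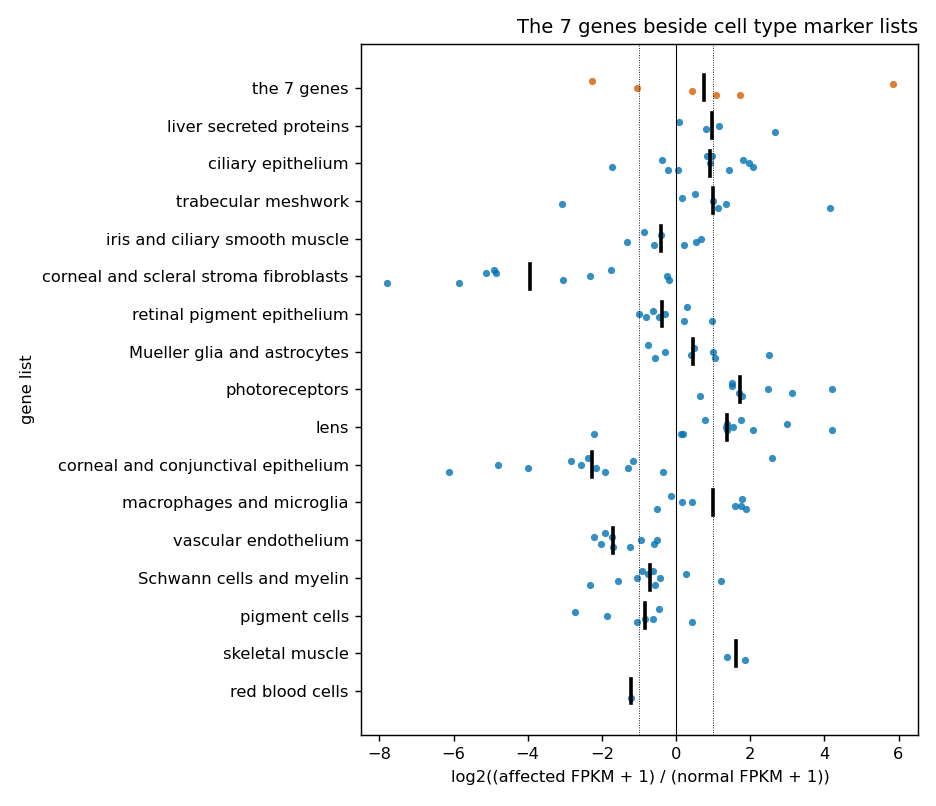
The same log2 ratio (x axis) for the 7 genes (orange) beside 16 lists of cell type markers (blue, y axis). Genes listed at 0 in a library are not drawn, black bars mark the medians of the drawn genes, and dotted lines mark 2-fold. The list of corneal and scleral stroma fibroblasts lies lowest, with a median of −3.95, and the photoreceptor list highest, with a median of 1.73.

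Of the remaining marker lists, the smallest sums were those of blood and muscle. Red blood cell genes summed to 8.38 FPKM in the normal cat and 0.847 FPKM in the affected cat, with HBM and SLC4A1 listed at 0 in the affected cat and 2 of 2 genes past the minimum lower. Without HBM the sums were 3.77 and 0.847 FPKM, and without AHSP 5.32 and 0.116 FPKM. Skeletal muscle genes summed to 9.50 and 37.4 FPKM. Lens genes summed to 49765 and 45442 FPKM, with 8 of 13 genes at least 2-fold higher and 2 lower, of which CRYAA was listed at 0 in the affected cat. Without CRYAA the lens sums were 26787 and 45442 FPKM, so this gene turns their direction. Corneal and conjunctival epithelium genes summed to 617.2 and 56.9 FPKM, with 10 of 12 lower and 1 higher, or 318.1 and 53.6 FPKM without KRT12 and 614.7 and 37.4 FPKM without S100A9. Trabecular meshwork genes summed to 865.3 and 865.8 FPKM, with 4 of 7 higher and 1 lower, and to 410.4 and 813.0 FPKM without MGP, but 703.6 and 511.9 FPKM without TIMP3 and 715.6 and 564.3 FPKM without MYOC, so their sum has no stable direction. TTR and S100B stand in 2 of the lists each. Smooth muscle genes summed to 1287 and 1114 FPKM, or 786.1 and 915.8 FPKM without TAGLN, and pigment cell genes to 2391 and 1648 FPKM, or 1730 and 751.5 FPKM without DCT. The part of these cell types in the values of the 7 genes was not tested.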

How the data were processed

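Reads were mapped by the authors to felCat5 (TopHat2 2.0.9, guided by Ensembl gene models), and FPKM per locus came from Cufflinks 2.1.1, where the deposited table holds 1 FPKM column per library. The scaling between libraries is not given in the sources used here. FPKM are not counts and each condition has 1 library, so no test was made. Genes were matched by exact name, with the row of higher mean where a name repeats. The 7 genes and all lists were chosen with earlier results of these data known. Genes of the lipid lists were named when at least 2-fold different or among the 3 highest of their list, together with further members that complete a described step, which were chosen after their values were seen. Fragment scale was fitted on unnamed loci as the step that makes low values whole, where 97.0% of 1940 values in the normal and 95.5% of 1722 in the affected library were whole to a tolerance of 0.03 (6% would be by chance). Errors derived from it cover counting only. The fit of the fragment scale and the 2-fold counts were tested on simulated data. Alternatives were another pseudocount, 3 rescalings, 2 filters, summed rows and a 4-fold limit. Removing PLTP, or every locus at 0 in just 1 library, was added after the values were seen. Scripts ran in Python 3.11.15 (numpy 2.4.6, pandas 2.3.3), with plots from matplotlib 3.10.9. Gene names of a later cat assembly were not needed. A few genes that this naming covers are not reported here.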

Additional observations from a re-analysis of the deposited data

How the results depend on the processing

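The counts of 3 higher and 3 lower genes among the 7 held under each alternative except the 4-fold limit, where 1 was higher and 2 were lower, and the removal of PLTP or of loci at 0 in exactly 1 library, where 2 were lower. Of 48 recomputed log2 ratios of single genes 6 moved by at least 0.1 and none changed sign. That of APOA1 ranged from −1.16 to −1.04 and that of ABCA1 from 1.04 to 1.23. The median of the 7 genes was 0.31 with libraries rescaled without the 10 highest loci and 0.75 without PLTP or without loci at 0 in exactly 1 library. Loci at least 2-fold higher and lower numbered 815 and 691 when a mean of 5 FPKM was required and 280 and 298 at 4-fold, and 2304 were lower when rescaled without the 10 highest loci.

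The list medians depend on the pseudocount, on the scaling and on the filter, which sets the genes compared. With a pseudocount of 0.1 the median of other apolipoproteins was 0.94 and that of lipases −0.19. With a summed FPKM of 1000000 they were 0.065 and −0.43, and without the 10 highest loci 0.040 and −0.17, with receptors at −0.22, cholesterol synthesis at −0.43 and sterol handling at 0.023. With no minimum, other apolipoproteins were at 0, transporters at 0.18 and lipocalins at 0.48. When a mean of 5 FPKM was required, other apolipoproteins were at −0.43, lipases at 0.46 and receptors at 0.18. Under the main settings their medians were 0.53, −0.015 and −0.086, so the sign changed for each. With that mean required, the LXR and PPAR list was at 0.24 and lipocalins at 1.90. No further cause of these shifts was tested. All 127 recomputed cell type medians kept their sign, though 32 moved by at least 0.1. No paired analysis was possible because only 1 library stands for each cat, which also limits all precision to counting error.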
